A study of Mus musculus with 6 samples.

Results

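The genes described here are 9 transcription factors that pattern the foregut and specify gastric cell lineages, Onecut2, Pdx1, Gata4, Gata6, Foxa2, Hnf4a, Sox2, Sox9 and Barx1. They were taken by gene symbol from a table of read counts for 21526 symbols, and all 9 were present and passed the filter on low counts. RNA came from epithelial cells of the mouse gastric corpus, the acid-secreting body of the stomach, in 3 libraries of Yap-activated gastric cancer and 3 libraries of normal stomach. The Yap-activated mice carried CluCreERT2, R26rtTA and HA-Yap+, that is, a tamoxifen-dependent Cre at the Clu gene, the doxycycline-dependent activator rtTA at Rosa26 and a tagged Yap transgene, so that Cre is made where Clu is used. The Normal mice were labelled WT. Tamoxifen (2 mg on 5 days) and then doxycycline food (the last 14 days) were given to both groups, so these agents do not distinguish them, whereas the CreERT2 and rtTA alleles do and cannot be told apart from Yap. Neither the age of the mice nor the number of mice per library is stated in the labels, and p-values cover only the variation among the 6 libraries, part of which may be technical.

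Library totals ran from 25580734 to 44295619 counts in Yap-activated tissue and from 36815754 to 48440033 counts in Normal tissue. Yap1 was at 1468 to 3085 CPM (counts divided by the library total, corrected with TMM factors) in Yap-activated libraries and at 100.3 to 106 CPM in Normal libraries, as the labels state. Parietal and chief cell markers of the corpus glands fell: all 5 parietal and all 4 tested chief cell markers were lower. Summed levels were 75.1 to 103 CPM in Yap-activated and 22760 to 31400 CPM in Normal libraries for parietal markers. The chief cell markers summed to 340 to 561 CPM in Yap-activated and 88680 to 138600 CPM in Normal libraries. The 4 neck cell markers were mixed: Cftr rose by 6.36 and Aqp5 by 3.05 on the log2 scale. Muc6 fell by 1.25, and Tff2 did not pass the threshold given below. In Normal libraries Cftr and Aqp5 were low, with means of 2.72 and 14.2 CPM, against 954 CPM for Muc6 and 1360 CPM for Tff2. Normal replicate 2 stood apart in squamous forestomach markers, at 36.2 CPM in sum against 1.14 and 0.19 CPM in the other Normal libraries.

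These factors act as a combinatorial code in the developing gut tube. Gata4, Gata6, Foxa2 and Hnf4a are expressed along most of the endoderm and open and activate epithelial genes. Pdx1 marks the region around the antrum, duodenum and pancreas, and Sox2 the anterior foregut and stomach. Barx1 acts in the stomach mesenchyme of the mouse embryo, Sox9 in progenitor and duct-like cells, and Onecut2 belongs to the cut-homeodomain family best known from liver, pancreas and duodenum.

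The letters that the Onecut family binds were looked for in the promoter windows, since Onecut2 changed most among the 9 genes. RefSeq (GRCm38.p6) windows of 250 bases before a start site were found for Pdx1, Foxa2, Hnf4a, Sox2 and Barx1, 5 of the 9 genes, with 8 start sites in all; Onecut2, Gata4, Gata6 and Sox9 were not searched. The letters searched on both strands were ATTGAT for the Onecut family, GGAATG for TEAD, the DNA-binding partners of Yap, and TGTTTAC for FOXA factors. The other searches were AGATAA for the family of Gata4 and Gata6, CAAAGTCCA for the family of Hnf4a and ACAATG for that of Sox2 and Sox9. ATTGAT occurred before the outer start of Foxa2, from base 213 to 208 before the start, and on the minus strand before the distal start of Hnf4a, from base 59 to 54, where AGATAA followed from base 52 to 47. Both windows are shown for these matches, which stand in capitals and do not overlap each other:
Foxa2, chr2:148046970-148047219, minus strand: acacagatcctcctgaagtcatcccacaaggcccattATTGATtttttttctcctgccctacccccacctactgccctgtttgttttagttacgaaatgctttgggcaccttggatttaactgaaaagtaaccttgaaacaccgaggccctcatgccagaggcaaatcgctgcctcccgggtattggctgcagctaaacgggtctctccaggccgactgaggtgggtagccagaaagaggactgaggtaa
Hnf4a, chr2:163506607-163506856, plus strand: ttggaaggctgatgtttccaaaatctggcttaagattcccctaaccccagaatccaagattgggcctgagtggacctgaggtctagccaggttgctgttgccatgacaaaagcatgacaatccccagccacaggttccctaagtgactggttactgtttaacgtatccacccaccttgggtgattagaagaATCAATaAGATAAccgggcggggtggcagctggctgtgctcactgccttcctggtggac
The start that GENCODE gives for Hnf4a lies inside the second window. Of 32851 windows of this length, 6.72% held ATTGAT and 9.99% held AGATAA. Another start of Foxa2 also had AGATAA before it, while the TEAD, FOXA, HNF4 and SOX letters were in none of the 8 windows of these 5 genes, against 12.6%, 3.17%, 0.384% and 10.7% of all windows. A match is a run of letters, not a binding site, and its absence says only that these letters are not in the window.

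Onecut2 and Pdx1 rose in Yap-activated tissue, and Gata4, Gata6 and Foxa2 fell. Hnf4a, Sox2, Sox9 and Barx1 did not pass the threshold of 0.05 on the adjusted p of edgeR's quasi-likelihood test with Benjamini-Hochberg adjustment over 14600 genes. Of all genes tested, 59.5% were called, 29.8% higher and 29.7% lower, so the 5 calls among 9 genes are near the share of any genes in this comparison. The median log2 fold change was -0.28 over the 9 genes and 0.01 over all genes tested. The libraries hold the RNA of all cells mixed, so that fewer cells of a type and less RNA per cell cannot be told apart.

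**Figure D1:**
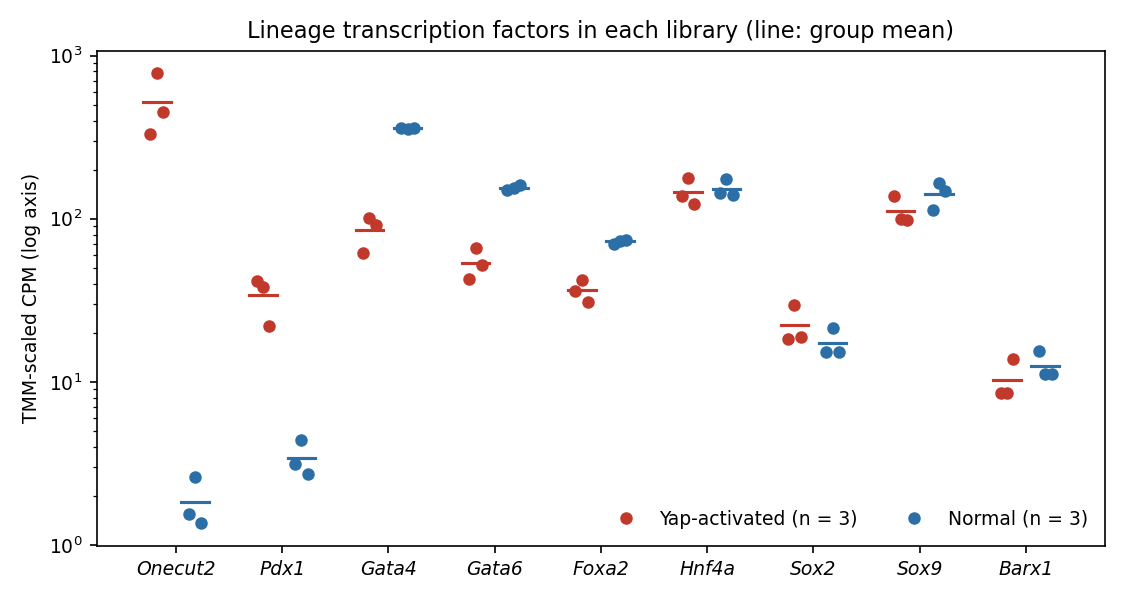
TMM-scaled CPM on a log axis for each of the 9 genes, with 1 point per library and a line at the group mean, Yap-activated in red and Normal in blue (n = 3 each). Onecut2 lies at 331 to 780 CPM against 1.36 to 2.59 CPM, Gata4 at 62.1 to 102 CPM against 354 to 361 CPM, and the points of Hnf4a, Sox2, Sox9 and Barx1 overlap.

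Onecut2 encodes a factor with a cut domain and a homeodomain and lies on chromosome 18. It had 9759, 32696 and 24231 reads in Yap-activated replicates 1, 2 and 3, and 53, 109 and 43 reads in the Normal replicates. After scaling it stood at 331, 780 and 451 CPM in Yap-activated libraries and at 1.54, 2.59 and 1.36 CPM in Normal libraries. The lowest Yap-activated library was 128 times the highest Normal library, and within each group replicate 2 was the highest. The log2 fold change was 8.13 (SE 0.48, edgeR adjusted p = 1.48e-05), a 280-fold rise with a 95% interval of 128-fold to 612-fold.

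Pdx1, the homeodomain factor of the antrum, duodenum and pancreas, lies on chromosome 5 from 147269959 to 147275848 (GRCm38). It stood at 41.4, 38.2 and 22.0 CPM in Yap-activated replicates 1, 2 and 3 and at 3.15, 4.37 and 2.72 CPM in the Normal replicates. The groups did not overlap, as at 67.6% of all genes tested, 33.2% with Yap-activated higher and 34.4% with it lower, and the log2 fold change was 3.30 (SE 0.30, edgeR adjusted p = 6.7e-05), a 9.86-fold rise. Pdx1 and Onecut2 did not follow the same order within the Yap-activated group, since replicate 1 was the highest for Pdx1 and the lowest for Onecut2. The marker list of the antrum holds Pdx1 itself, Gast (gastrin) and Nkx6-3 (an antral homeodomain factor). Gast rose by 2.06 (edgeR adjusted p = 0.042) and Nkx6-3 by 1.66 (edgeR adjusted p = 0.0114) on the log2 scale. Gast varied among the Normal replicates, at 0.932, 6.77 and 9.33 CPM. With Pdx1 included, the list summed to 56.4 to 102 CPM in Yap-activated and 11.5 to 21.5 CPM in Normal libraries. The part of the antrum in the rise of Pdx1 was not tested. Pdx1 and Onecut factors are also used in exocrine pancreas. Markers of exocrine pancreas summed to 0.286 to 0.577 CPM in Yap-activated and 22.9 to 38.1 CPM in Normal libraries. Most of the Normal sum was a single gene, Cel, at 20.2, 35.9 and 23.4 CPM in Normal replicates 1, 2 and 3. All 3 of the 8 that could be tested fell, and Cpa1 was at 0 in all 6 libraries. The part of exocrine pancreas in the levels of Pdx1 and Onecut2 was not tested.

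Gata4, a zinc finger factor of the columnar stomach epithelium, lies on chromosome 14, minus strand, between 63198922 and 63271692 (GRCm38). It had 62.1, 102 and 91.1 CPM in Yap-activated replicates 1, 2 and 3, against 359, 354 and 361 CPM in the Normal replicates. The Normal libraries differed by 1.02-fold from lowest to highest and the Yap-activated ones by 1.64-fold, and no library of one group reached the other. Gata4 fell by 2.07 on the log2 scale (SE 0.19, edgeR adjusted p = 5.53e-05), which is 4.21-fold lower.

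Gata6, its relative on chromosome 18, is also a regulator of gut epithelium. It stood at 43.0, 66.6 and 51.8 CPM in Yap-activated libraries and at 149, 154 and 161 CPM in Normal libraries, and fell by 1.52 (SE 0.16, edgeR adjusted p = 0.000122). As for Gata4, Yap-activated replicate 1 was the lowest of the 6 libraries and the Normal libraries lay close together. Per length, Gata6 made up 29.4%, 28.2% and 25.5% of the summed Gata4 and Gata6 level in Yap-activated libraries, and 20.0%, 20.7% and 21.1% in Normal libraries. This share, which does not depend on the scaling of libraries, was 7.08 percentage points higher in Yap-activated tissue, and the groups did not overlap (exact permutation test, 2-sided, p = 0.1, the lowest value that groups of 3 allow). Gata5, the other endodermal GATA gene, had a log2 fold change of -0.32 (edgeR adjusted p = 0.0591) and stood at 16.3 ± 2.29 RPKM in Yap-activated and 20.2 ± 1.65 RPKM in Normal tissue (RPKM, CPM divided by exon length in kilobases; SD, n = 3).

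Foxa2, a forkhead pioneer factor of the endoderm, lies on chromosome 2, minus strand, between 148042877 and 148046969 (GRCm38), and is the gene whose outer promoter window is printed above. It had 36.1, 42.1 and 31.0 CPM in Yap-activated libraries, against 70.3, 73.1 and 74.1 CPM in Normal libraries. The highest Yap-activated library was below the lowest Normal one, and Foxa2 fell by 0.99 (SE 0.12, edgeR adjusted p = 0.000299), 1.99-fold lower. In a test against a 2-fold change Foxa2 did not pass (edgeR adjusted p = 0.753), while Onecut2, Pdx1, Gata4 and Gata6 did.

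Gata4, Gata6 and Foxa2 fell in Yap-activated tissue, and so did the parietal and chief cell markers given above. Of all genes tested, 29.7% were lower. All 4 measured surface mucous markers were lower, with a sum of 1377 to 2113 CPM in Yap-activated and 43000 to 50220 CPM in Normal libraries. All 4 endothelial markers were lower, with a sum of 25.0 to 46.4 CPM in Yap-activated and 144 to 156 CPM in Normal libraries. Of 6 immune markers 4 were higher, with 41.4 to 537 CPM in Yap-activated and 19.9 to 21.1 CPM in Normal libraries, while Cd3e and Cd79a did not pass. Most of the 537 CPM, in Yap-activated replicate 1, was S100a8 at 218.5 and S100a9 at 274 CPM. In Yap-activated replicate 2 these were at 4.01 and 7.20 CPM. Mitochondrial genes held 7.49% to 13.8% of counts in Yap-activated and 15.1% to 27.6% in Normal libraries, where replicate 1 was the highest. The part of these cell types, and of the mitochondrial share, in the falls was not tested. Of Epcam, Cdh1, Krt8 and Krt18, markers of epithelium in general, 3 rose and Cdh1 did not pass. These 4 genes summed to 7348 to 8218 CPM in Yap-activated and 3450 to 4236 CPM in Normal libraries. Their part in the levels of Gata4, Gata6 and Foxa2 was also not tested.

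**Figure D2:**
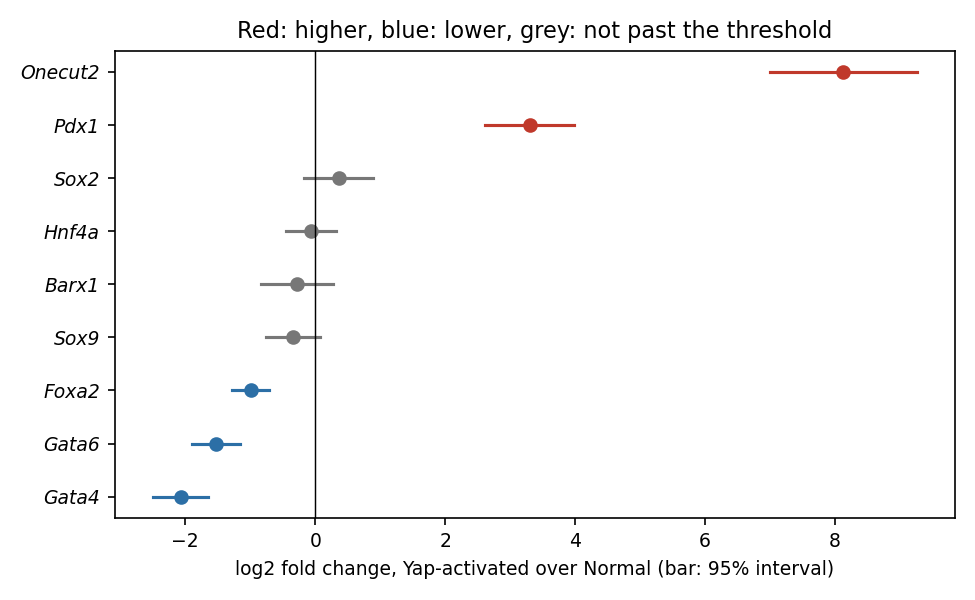
Log2 fold change of Yap-activated over Normal for the 9 genes (points) with 95% intervals (bars), ordered by size, red for higher, blue for lower and grey for genes not past the threshold. Onecut2 is at 8.13 and Pdx1 at 3.30, while the intervals of Sox2, Hnf4a, Barx1 and Sox9 include 0.

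Hnf4a, a nuclear receptor that activates genes of liver and gut epithelium, lies on chromosome 2 from 163506808 to 163572910 (GRCm38). It stood at 138, 179 and 123 CPM in Yap-activated libraries and at 144, 175 and 140 CPM in Normal libraries, so the groups overlapped throughout. Its log2 fold change was -0.06, with a 95% interval of -0.44 to 0.32 (edgeR adjusted p = 0.758). Gene counts do not separate the transcripts that begin at the distal start, shown above, from those of the proximal start.

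Sox2, an HMG-box factor of the foregut and stomach, lies on chromosome 3 from 34650405 to 34652461 (GRCm38). It had 18.2, 29.7 and 18.9 CPM in Yap-activated libraries and 15.1, 21.5 and 15.3 CPM in Normal libraries, with replicate 2 the highest in each group. The log2 fold change was 0.36 with an interval of -0.17 to 0.90 (edgeR adjusted p = 0.208). Other scalings made Sox2 pass in opposite directions. It was at 0.85 with library totals alone (edgeR adjusted p = 0.0156). With libraries scaled to Epcam, Cdh1, Krt8 and Krt18 it was at -0.69 (edgeR adjusted p = 0.00703). Normal replicate 2 is also the library with the squamous markers; over these 7 markers, none of which passed, sums were 42.0 to 68.4 CPM in Yap-activated and 0.19 to 36.2 CPM in Normal libraries, and their part in the Sox2 level was not tested.

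Sox9, an HMG-box factor of progenitor and ductal epithelium, lies on chromosome 11 from 112782224 to 112787760 (GRCm38). It stood at 137, 99.8 and 98.8 CPM in Yap-activated libraries and at 114, 165 and 148 CPM in Normal libraries, where Yap-activated replicate 1 lay among the Normal values. Its log2 fold change was -0.34 (interval -0.76 to 0.08, edgeR adjusted p = 0.138). Without Yap-activated replicate 1 it passed, at -0.50 (edgeR adjusted p = 0.0332). Per length, Sox9 made up 79.0%, 62.6% and 72.2% of the summed Sox2 and Sox9 level in Yap-activated libraries and 78.9%, 79.2% and 82.8% in Normal libraries, and this share did not separate the groups (exact permutation test, 2-sided, p = 0.2).

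Barx1, a homeodomain factor, lies on chromosome 13 from 48662998 to 48666507 (GRCm38). It had 8.54, 8.54 and 13.9 CPM in Yap-activated libraries and 15.4, 11.2 and 11.2 CPM in Normal libraries, with Yap-activated replicate 3 above both lower Normal libraries. The log2 fold change was -0.28 (interval -0.84 to 0.27, edgeR adjusted p = 0.336), and -0.55 without Yap-activated replicate 3, where it passed (edgeR adjusted p = 0.0452). That library also had the highest smooth muscle sum of its group, 246 CPM against 169 and 106 CPM in replicates 1 and 2. Over the 6 smooth muscle markers, 3 of which fell, sums were 106 to 246 CPM in Yap-activated and 205 to 325 CPM in Normal libraries. Over the 7 fibroblast markers, 4 of which fell, they were 375 to 623 CPM in Yap-activated and 832 to 1247 CPM in Normal libraries. No marker of either list was at 0 in all libraries, and their part in the Barx1 level was not tested.

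Per length, the order of the 9 genes differed between the groups. In Normal tissue Gata4 stood first at 91.6 ± 0.90 RPKM, apart from Sox9 at 34.3 ± 6.28, Hnf4a at 31.7 ± 4.02 and Foxa2 at 30.6 ± 0.82 RPKM, whose ranges overlapped as neighbours (SD, n = 3). Gata6 followed at 23.8 ± 0.87 RPKM, then Barx1 and Sox2, which overlapped, then Pdx1 at 1.58 ± 0.40 and Onecut2, last at 0.113 ± 0.041 RPKM. In Yap-activated tissue Onecut2 stood first by its mean, at 32.1 ± 14.3 RPKM, followed by Hnf4a at 30.3 ± 6.04, Sox9 at 27.1 ± 5.31, Gata4 at 21.8 ± 5.26, Pdx1 at 15.7 ± 4.81, Foxa2 at 15.4 ± 2.34, Sox2 at 10.8 ± 3.14, Gata6 at 8.27 ± 1.83 and Barx1 at 7.37 ± 2.19 RPKM (SD, n = 3). There the ranges of all neighbours in the order overlapped. Of the summed RPKM of the 9 genes, Onecut2 held 13.2%, 23.8% and 18.4% in Yap-activated libraries and 0.043%, 0.066% and 0.036% in Normal libraries. Gata4 held 10.3%, 12.9% and 15.5% in Yap-activated libraries and 41.5%, 37.5% and 40.2% in Normal libraries.

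**Figure D3:**
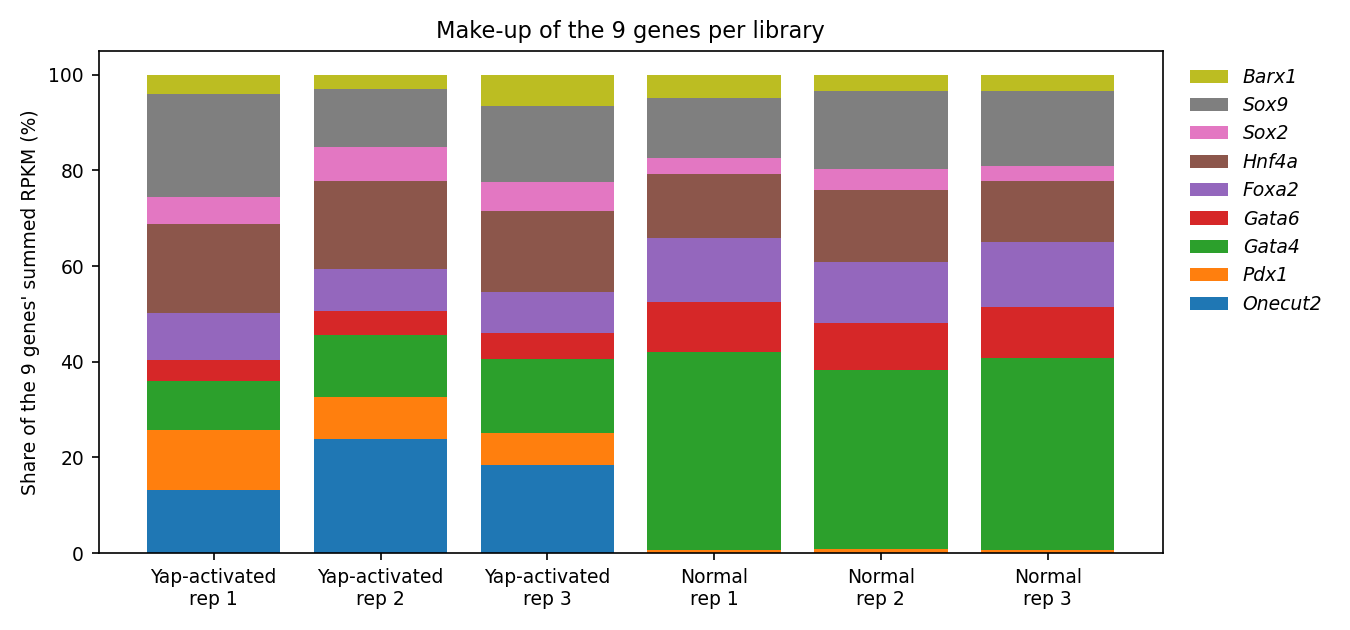
Share of the summed RPKM of the 9 genes held by each gene, in percent, as a stacked bar per library, Yap-activated replicates 1 to 3 and then Normal replicates 1 to 3. Gata4 fills 37.5% to 41.5% of each Normal bar, and Onecut2 13.2% to 23.8% of each Yap-activated bar.

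The spread within groups was unequal. The coefficient of variation of CPM in Yap-activated libraries ran from 15.2% for Foxa2 to 44.7% for Onecut2. In Normal libraries it was 0.98% for Gata4, 2.69% for Foxa2 and 3.65% for Gata6, and from 12.7% for Hnf4a to 36.2% for Onecut2 among the other 6 genes. Yap-activated replicate 2 was the highest of its group for 6 of the 9 genes, Pdx1, Sox9 and Barx1 being the exceptions, and Normal replicate 2 was the highest of its group for 5.

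Close relatives of the 9 genes were measured beside them. Of 17 listed, 12 could be tested, and 4 rose, 3 fell and 5 did not pass, with a median log2 fold change of 0.03. With the epithelial scaling 9 fell, and against a 2-fold change 1 fell. Onecut3, which shares the cut and homeodomain structure of Onecut2, had 87.5, 121 and 79.7 CPM in Yap-activated libraries and 0.466, 1.16 and 0.411 CPM in Normal libraries, a log2 fold change of 7.08 (SE 0.39, edgeR adjusted p = 1.1e-05). As for Onecut2, replicate 2 was the highest in each group. Onecut1, the third gene of the family, had 1, 0 and 0 reads in Yap-activated and 2, 2 and 1 reads in Normal libraries and was not tested.

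Among the forkhead relatives, Foxa3 fell with Foxa2, at 15.8 ± 2.22 RPKM in Yap-activated and 40.5 ± 4.45 RPKM in Normal tissue (SD, n = 3; log2 fold change -1.36, edgeR adjusted p = 9.15e-05). Foxa1, per length the most abundant gene of the list, stood at 75.6 ± 10.6 RPKM in Yap-activated and 64.9 ± 8.40 RPKM in Normal tissue (SD, n = 3) and did not pass (log2 fold change 0.22, edgeR adjusted p = 0.231). Barx2, the relative of Barx1, rose by 5.96 on the log2 scale (edgeR adjusted p = 4.66e-05), with 19.0, 9.85 and 10.6 CPM in Yap-activated libraries and 0.087, 0.356 and 0.158 CPM in Normal libraries. Differences between relatives in their response were not tested.

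**Figure D4:**
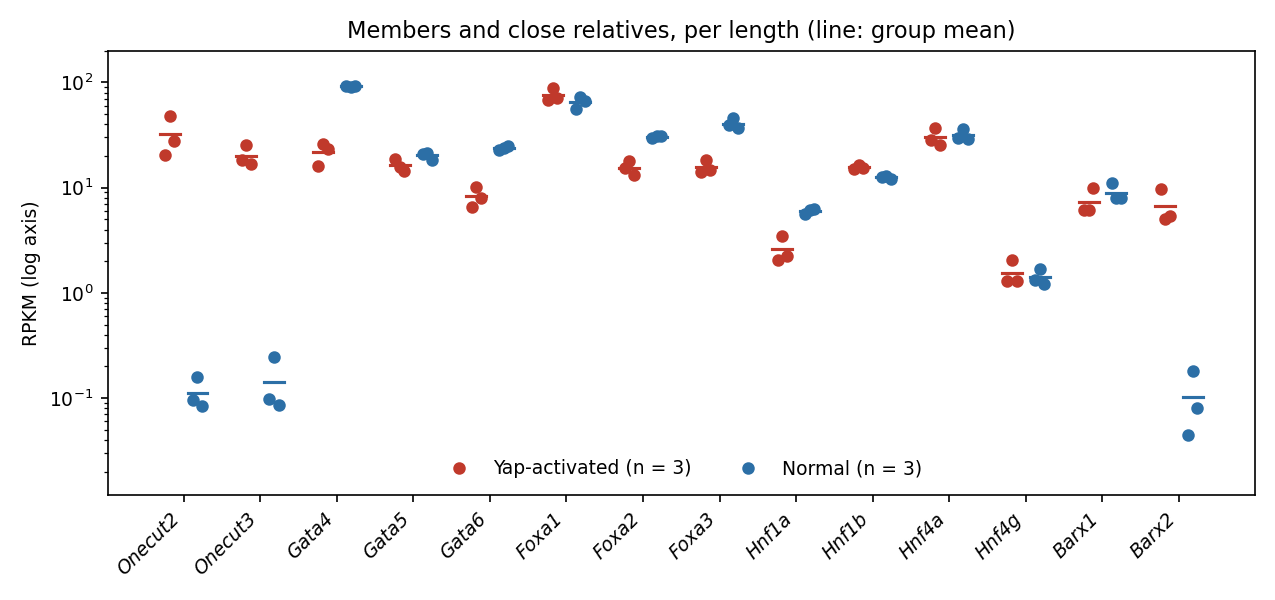
RPKM on a log axis for members and their close relatives, with 1 point per library and a line at the group mean, Yap-activated in red and Normal in blue (n = 3 each). Onecut2 and Onecut3 lie at 16.7 to 48.0 RPKM in Yap-activated libraries and at 0.084 to 0.244 RPKM in Normal libraries, while Foxa1 overlaps between the groups.

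Other transcription factors of the stomach and gut give the setting. The lists share genes: Onecut3, Gata5 and Hnf4g among the intestinal factors and Sox21 among the squamous ones are also close relatives counted above. Of 11 intestinal factors, 7 could be tested, 4 rose and none fell (median log2 fold change 1.52, and 1.52 with Osr2 at its lower bound). With libraries scaled to the 4 epithelial genes Epcam, Cdh1, Krt8 and Krt18, 2 rose and 2 fell, and without Yap-activated replicate 1, 1 fell. The 4 that rose in the main fit were Onecut3, Osr2, Creb3l3 and Ascl2, the last chosen after its values were seen. Osr2, a zinc finger factor, was at 1.07 ± 0.15 CPM in Yap-activated tissue, with no read in any Normal library (SD, n = 3). It was at least 12.7-fold higher, against 3 counts per library. Creb3l3, a membrane-bound factor of liver and small intestine, had a log2 fold change of 1.74 (edgeR adjusted p = 0.000523). Ascl2 was at 1.52 (edgeR adjusted p = 0.00315). Per length, Onecut3 was the most abundant of the list in Yap-activated tissue, at 20.1 RPKM, and Gata5 in Normal tissue, at 20.2 RPKM. The caudal homeobox genes that mark intestine stayed low. Cdx1 had no read in any library. Cdx2 had 30, 4 and 19 reads in Yap-activated libraries and none in Normal libraries, below the filter for a test. By its mean, Cdx2 was at least 5.78-fold higher in Yap-activated tissue, against 3 counts per library. Yap-activated replicate 1 held most of the Cdx2 level, with 1.02 CPM against 0.0954 and 0.353 CPM in replicates 2 and 3. Of the 11 intestinal epithelium markers, 4 of 10 tested rose and 1 fell, and sums were 122 to 179 CPM in Yap-activated and 1254 to 2059 CPM in Normal libraries, of which Apoa1, the one that fell, averaged 1561 CPM in Normal tissue.

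Of 15 factors of gastric epithelium, 5 rose, 7 fell and 3 did not pass (median log2 fold change -0.18). With the epithelial scaling 1 rose and 11 fell, and against a 2-fold change 1 rose and 4 fell. Bhlha15, a factor of secretory chief cells, fell by 5.89 (SE 0.17), Esrrg, an estrogen-related receptor, by 7.51 (SE 0.29), and Tfcp2l1 by 2.39 (SE 0.16), while Elf3, an ETS factor of epithelia, rose by 1.16 (SE 0.21). Per length, Elf3 was the most abundant of the list in Yap-activated tissue, at 259 RPKM, and Klf4, a zinc finger factor named after its values were seen, in Normal tissue, at 161 RPKM. Of 12 endocrine factors, 9 could be tested, 5 fell and none rose (median -1.52). With a filter of 1 CPM in 3 libraries 2 fell, with the epithelial scaling 8 fell, and 1 rose with library totals alone and without Yap-activated replicate 2. Isl1, a LIM homeodomain factor and the most abundant of them per length, fell by 1.52, Insm1, a zinc finger factor of endocrine cells, by 2.98 and Mnx1, a homeodomain factor, by 3.45 on the log2 scale. Most listed markers of endocrine cells also fell, 4 of 5, with log2 fold changes of -5.53 for Chga (chromogranin A), -5.27 for Ghrl (ghrelin) and -5.82 for Sst (somatostatin). Hdc did not pass (-1.20, edgeR adjusted p = 0.107). Gast (gastrin), listed with the antral markers, rose by 2.06 (edgeR adjusted p = 0.042). Without Gast, the 5 endocrine markers had sums of 20.7 to 38.2 CPM in Yap-activated and 600.5 to 810 CPM in Normal libraries. Their part in the falls of these factors was not tested.

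Of 8 squamous and anterior foregut factors, 6 could be tested, and Grhl3, a factor of squamous barrier epithelium, rose by 5.80 (SE 0.60) while the other 5 did not pass (median 0.51). Library totals alone gave 3 that rose and leaving out Yap-activated replicate 1 gave 2, while the epithelial scaling gave 2 that fell and leaving out Yap-activated replicate 2 gave 1. Sox21, an HMG-box relative of Sox2 and the most abundant of the list per length, was at -0.07, Sox15 at 1.15 (edgeR adjusted p = 0.0747) and Ovol1 at 0.58 (edgeR adjusted p = 0.223). Of 15 factors of stomach mesenchyme, the tissue in which Barx1 acts in the embryo, 12 could be tested, 3 rose and 3 fell (median -0.07). With library totals alone 5 rose, with the epithelial scaling none rose and 7 fell, and against a 2-fold change none rose and 1 fell. Meis2 rose by 1.36, while Tcf21 fell by 1.93 and Nr2f2, the most abundant per length, by 1.02. The counts of calls in these lists stand beside 59.5% of all genes called.

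The genes whose profiles over the 6 libraries were closest to those of Onecut2, Gata4 and Pdx1 were found by the root mean square difference of mean-centred log2 CPM. For Onecut2 they were Cyp21a1 (difference 0.29), Otop2 (0.33) and Otop3 (0.35). Cyp21a1 encodes a steroid hydroxylase and has a near-identical pseudogene, which leaves its count uncertain, and Otop2 and Otop3 encode otopetrin proton channels. For Gata4 they included Tef (0.05) and Tfdp2 (0.10), which encode a circadian leucine zipper factor and a partner of E2F factors. For Pdx1 they were Sprr2a3 (0.10), Aqp5 (0.17) and Serpinb5 (0.18), of which Sprr2a3 belongs to a cluster of near-identical copies, Aqp5 encodes a water channel and Serpinb5 a serpin. With 2 groups of libraries, this likeness rests mostly on the difference between the groups.

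The scaling of libraries set the sign of the 4 genes that did not pass. When libraries were scaled by their totals only, the median log2 fold change of all genes moved to 0.51, and with libraries scaled to the summed counts of Epcam, Cdh1, Krt8 and Krt18, 3 of which rose, it moved to -1.04. Onecut2 and Pdx1 were higher and Gata4, Gata6 and Foxa2 lower, past the threshold, under each of these scalings. Sox2 passed under both, at 0.85 (edgeR adjusted p = 0.0156) with totals alone and at -0.69 (edgeR adjusted p = 0.00703) with the 4 epithelial genes. Hnf4a was at 0.43 and -1.12. Sox9 was at 0.14 and -1.39 and Barx1 at 0.22 and -1.33 under the same scalings, and of the 2 scalings these 3 genes passed only with the epithelial genes. Relative to the median of all genes under each scaling, the log2 fold changes of the 9 genes differed little. This follows by arithmetic, since a scaling shifts all genes by nearly the same amount, and is not a test of stability. Hnf4a was at -0.07, -0.08 and -0.08 with TMM, totals alone and the epithelial genes, and Gata4 at -2.08, -2.08 and -2.09.

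**Figure D5:**
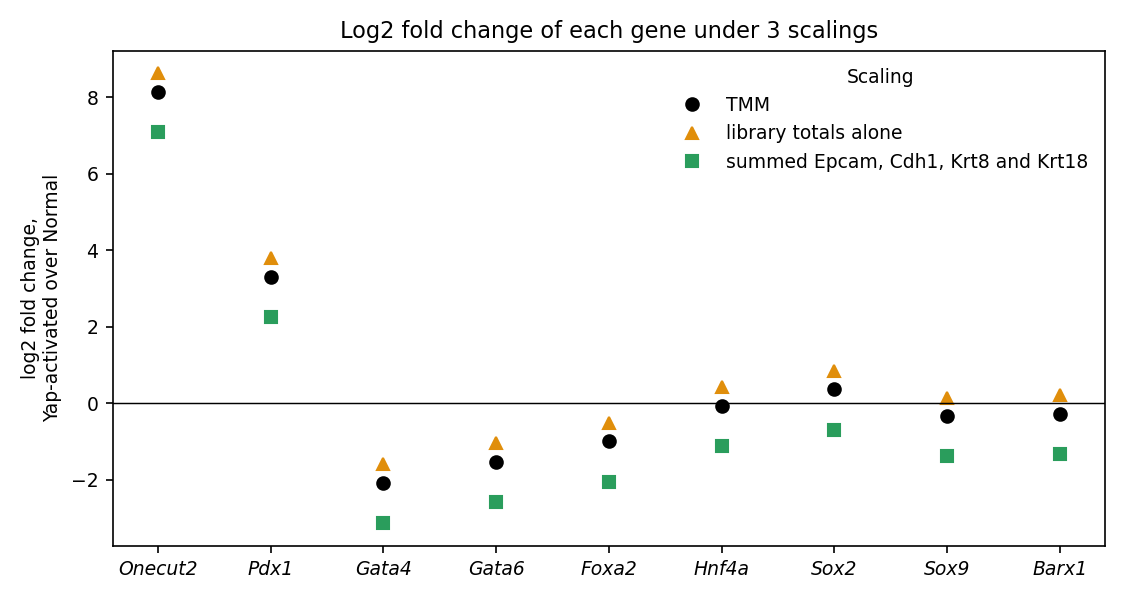
Log2 fold change of Yap-activated over Normal for the 9 genes under 3 scalings of the libraries, TMM (circles), library totals alone (triangles) and the summed counts of Epcam, Cdh1, Krt8 and Krt18 (squares). Onecut2 and Pdx1 stay above 0 and Gata4, Gata6 and Foxa2 below 0, while Hnf4a, Sox2, Sox9 and Barx1 lie on both sides.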

How the data were processed

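RNA was measured in 6 libraries (paired reads of 50 bases, stranded poly(A) kit, per the labels' protocols). The authors deposited raw counts per gene symbol, and all 6 columns were used. GRCm38, mm10, STAR 2.4.2a and DESeq2 appear in the submitters' processing notes. How reads were counted, with which annotation and whether by strand, is not given in the sources, so reads of overlapping transcripts cannot be separated (93 exon bases of Gata6 are shared with an antisense transcript; Sox2, Hnf4a and Pdx1 overlap other transcripts with no shared exon base).

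Genes were filtered by filterByExpr (minimum count 10), scaled by TMM and tested with the robust quasi-likelihood F-test of edgeR 4.0.16 in R 4.3.3 (no covariate, all 6 libraries), with Benjamini-Hochberg adjustment and a threshold of 0.05. SEs were derived from the log2 fold change and F. RPKM used exon lengths of GENCODE M21 (21523 of 21526 symbols matched), which may differ from the authors' annotation. Members, lists and tests were chosen with earlier results of these data known. Named genes are the 9 members, the 3 smallest p and the highest RPKM over all libraries in each list of transcription factors, and the 3 most alike genes, leaving out provisional symbols, of the 3 called members with the smallest p; one of the genes so chosen is not reported here. Alternatives were other scalings, filters, dispersions, DESeq2 1.42.0, limma voom (3.58.1), a 2-fold null, a replicate block, thinning, and leaving out each library. No 2 libraries agreed within sampling noise.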

Additional observations from a re-analysis of the deposited data

How the results depend on the processing

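Over 19 alternatives, Onecut2, Pdx1, Gata4 and Gata6 kept their direction and passed in each, with log2 fold changes of 7.09 to 8.62, 2.26 to 3.78, -3.13 to -1.58 and -2.59 to -1.03. Foxa2 ran from -2.06 to -0.50 and failed only against a 2-fold null (-0.99). With library totals alone, Sox2 passed at 0.85, and Sox9, Hnf4a and Barx1 turned to 0.14, 0.43 and 0.22, with 7522 genes higher and 2299 lower, against 4345 and 4337. Scaled to 4 epithelial genes, Sox2 turned to -0.69, Sox9, Hnf4a and Barx1 passed at -1.39, -1.12 and -1.33, and 7 members were lower, with 1347 genes higher and 10159 lower. Both scalings move the median of all genes. Against a 2-fold change 1594 genes were higher and 1454 lower. Leaving out each library gave 2 members higher in every case and 3 to 4 lower, 3530 to 4304 genes higher and 3674 to 4273 lower. It gave 7.71 to 8.48 for Onecut2, 3.15 to 3.54 for Pdx1, -2.23 to -1.88 for Gata4, -1.71 to -1.37 for Gata6 and -1.12 to -0.88 for Foxa2. It gave 0.09 to 0.54 for Sox2, -0.50 to -0.23 for Sox9, -0.24 to 0.06 for Hnf4a and -0.55 to -0.12 for Barx1. Hnf4a turned to 0.041 without Normal replicate 2 and 0.058 without Yap-activated replicate 3. With each library left out, the Gata6 share differed by 6.24 to 8.18 and the Sox9 share by -12.9 to -4.67 percentage points. With no length scaling the Gata6 share differed by 8.74 and the Sox9 share by -5.99 percentage points.

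Same-numbered libraries did not deviate together (correlations of 0.03, -0.01 and 0.07), and the main fit did not pair them. Correlations over so few libraries cannot settle whether same-numbered libraries were handled together. With a replicate block Sox2 was at 0.35 and passed (edgeR adjusted p = 0.0434, against 0.00703 to 1 over its alternatives), 3 members were higher and 3 lower, and no other member's call changed. Under the block 1 intestinal factor fell, against none without it. Of 228 counts over the lists of transcription factors, 205 stayed within 1.5 times and 23 moved further, which apart from that one are given beside the lists. Onecut1, Cdx1 and Cdx2 were below the main filter on low counts and were not tested in the main fit.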
